A study of Mus musculus with 6 samples.

Results

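The CXC and CX3C chemokines of mouse embryonic fibroblasts (MEFs) were followed through a time course of TNFα. The members were a chosen set of 9 genes of these families, not all that the table lists, namely Cxcl1, Cxcl2, Cxcl5, Cxcl9, Cxcl10, Cxcl12, Cxcl14, Cxcl16 and Cx3cl1, of 21837 genes in the deposited RefSeq table. All 9 were found in it. Where a gene had more than 1 transcript row, the row with the highest mean was used, which touched only Cxcl12, with 3 rows. The study asked how TNFα changes the transcriptome of MEFs. Wild type primary MEFs of strain C57BL/6x 129 came from littermate embryos of 13.5 days and were used at passage 4. Poly(A) RNA was sequenced from untreated cells and from cells given 20 ng/ml TNFα for 1.5, 6 or 24 hr, 1 library per condition, and the untreated library served as the control of all 3 times. Untreated MEFs also gave 1 ChIP-seq library of H3K4me3, a histone mark of active promoters, and 1 input library.

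Chemokines are small proteins that guide leukocytes along gradients by binding G protein coupled receptors, and their subfamilies are named for the spacing of conserved cysteines. Cxcl1, Cxcl2 and Cxcl5 bind Cxcr2 and draw neutrophils, whereas Cxcl9 and Cxcl10 bind Cxcr3 and draw activated T cells. Cxcl12 and Cxcl14 are made by resting stroma, and Cxcl16 and Cx3cl1 are made as membrane-anchored proteins that proteases can release. TNFα signals to NF-κB, a transcription factor that binds κB sites in promoters, and fibroblasts are a known source of chemokines in inflamed tissue.

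RefSeq promoter sequences (GRCm38.p6) were at hand for 7 of the 9 genes and were searched over the 250 bases before the start. The κB consensus, 10 bases long and read on both strands, matched in 3 of the 7, Cxcl1, Cxcl2 and Cxcl10, against 7.25% of 32851 promoters. The last 160 bases before the start are printed for these 3 genes, and for Cxcl9 and Cx3cl1, which had no κB match and were also more than 10 times higher at 1.5 hr. Capitals mark the κB matches, with overlapping matches joined. The stretches lie at chr5:90891085-90891244 (plus strand) for Cxcl1, chr5:90903739-90903898 (plus strand) for Cxcl2, chr5:92348890-92349049 (minus strand) for Cxcl10, chr5:92328080-92328239 (minus strand) for Cxcl9 and chr8:94772020-94772179 (plus strand) for Cx3cl1, and each is written 5′ to 3′ on the strand of its gene.
Cxcl1: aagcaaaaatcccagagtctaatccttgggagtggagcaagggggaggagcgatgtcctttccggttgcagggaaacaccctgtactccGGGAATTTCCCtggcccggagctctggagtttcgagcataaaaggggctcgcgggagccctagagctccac
Cxcl2: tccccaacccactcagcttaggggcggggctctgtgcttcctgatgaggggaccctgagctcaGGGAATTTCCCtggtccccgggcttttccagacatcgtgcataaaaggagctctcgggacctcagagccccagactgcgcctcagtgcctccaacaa
Cxcl10: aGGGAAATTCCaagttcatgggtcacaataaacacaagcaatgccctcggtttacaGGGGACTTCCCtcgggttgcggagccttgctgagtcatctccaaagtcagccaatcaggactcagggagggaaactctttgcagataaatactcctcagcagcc
Cxcl9: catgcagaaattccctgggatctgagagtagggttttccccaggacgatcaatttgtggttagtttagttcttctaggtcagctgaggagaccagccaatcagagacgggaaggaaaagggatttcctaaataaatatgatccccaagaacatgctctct
Cx3cl1: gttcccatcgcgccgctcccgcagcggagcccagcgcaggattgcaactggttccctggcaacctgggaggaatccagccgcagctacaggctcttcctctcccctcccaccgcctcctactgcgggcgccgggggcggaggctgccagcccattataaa

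Cxcl1 and Cxcl2 held the same 11 bases in capitals, from 71 to 61 bases before the start in Cxcl1 and from 97 to 87 before it in Cxcl2. Cxcl10 held a pair of matches, the outer from 159 to 150 and the inner from 104 to 94 bases before the start. An interferon regulatory factor (IRF) motif, written GAAANNGAA and read on both strands, matched in Cxcl9, Cxcl10 and Cxcl14, and in 7.13% of all promoters. The AP-1 motif TGANTCA, read on both strands, matched only in Cxcl10 among the 7 genes, 74 to 68 bases before the start, and in 6.75% of all promoters. TATAAA on the strand of the gene matched in Cxcl9 and Cx3cl1, and in 7.59% of all promoters. None of these motifs overlapped another in the 7 promoters. Cxcl12 had no match to any of the 4 motifs in this window. A match is a run of letters and was not tested as a binding site.

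**Figure D1:**
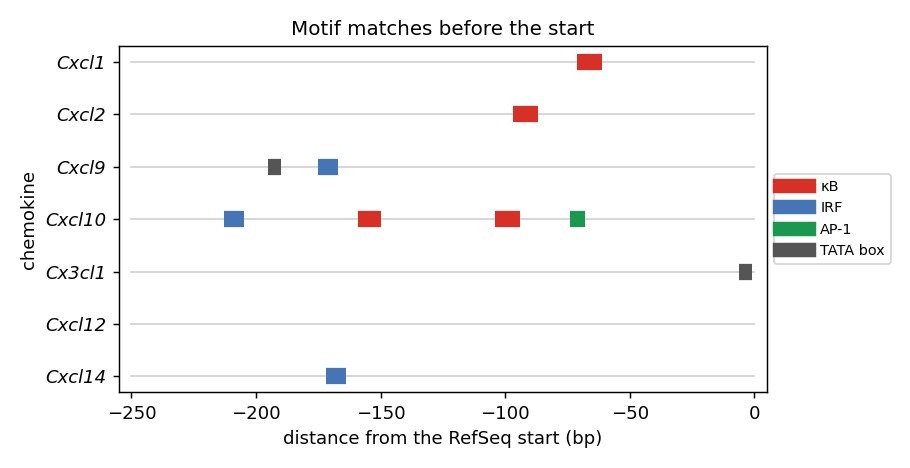
Matches of the κB consensus, the IRF motif, the AP-1 motif and TATAAA in the 250 bases before the RefSeq start of 7 chemokine genes. The key labels TATAAA as TATA box by its letters alone. The x axis is the distance from the start in bp and each row is a gene; Cxcl10 holds 4 matches and Cxcl12 none.

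The deposited RPKM values are on a scale of their own and are given as deposited. Each library has 2 columns, R1 and R2, which are not replicates, and the mean of both is the value of the library. With 1 library per time no test across samples was possible, and a gene was called higher or lower at a 2-fold difference from the untreated library, the fold the study used. The reads behind each value were estimated from the worth of 1 read, which was between 0.801 and 1.11 deposited units for 1 kb of transcript. The 95% intervals given for log2 ratios come from these estimated reads by the exact binomial (Clopper-Pearson) method, cover counting error only, and compare libraries, not conditions. Of 6022 coding genes with a mean value of at least 100, the median log2 ratio was 0.44 at 1.5 hr, then -0.74 at 6 hr and 0.10 at 24 hr. This shift of the whole library is given beside the members where it bears on them. In bulk RNA, a change in the number of cells of a type and a change in RNA per cell cannot be told apart.

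Of the 9 chemokines, 7 were at least 2-fold higher at 1.5 hr, then 5 at 6 hr and 6 at 24 hr. Among the 6022 coding genes, 29.8% were as much higher at 1.5 hr, then 1.84% at 6 hr and 16.8% at 24 hr. Cxcl1, Cxcl2, Cxcl5, Cxcl9 and Cxcl10 were higher at all 3 times. Cxcl12 was among the 7 at 1.5 hr, but only in the R1 column and not in R2, which left 6 with both columns past the fold. In the other direction, Cxcl14 at 6 hr was the only chemokine at least 2-fold lower. None of the 9 was lower at 1.5 hr or 24 hr, against 7.94% of coding genes at 1.5 hr, then 31.5% at 6 hr and 12.8% at 24 hr. After scaling to the sum of all values, 6 of the 9 were higher at each of the 3 times and Cxcl14 alone was lower, at 6 hr. The split of the coding genes then was 21.7% higher and 12.8% lower at 1.5 hr, 8.54% and 2.21% at 6 hr, and 18.2% and 12% at 24 hr. As deposited, the median log2 ratio of the 9 was 3.37 at 1.5 hr, then 1.28 at 6 hr and 2.13 at 24 hr. Cxcl9 had a mean value of 27.1 and was the only member under 100.

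**Figure D2:**
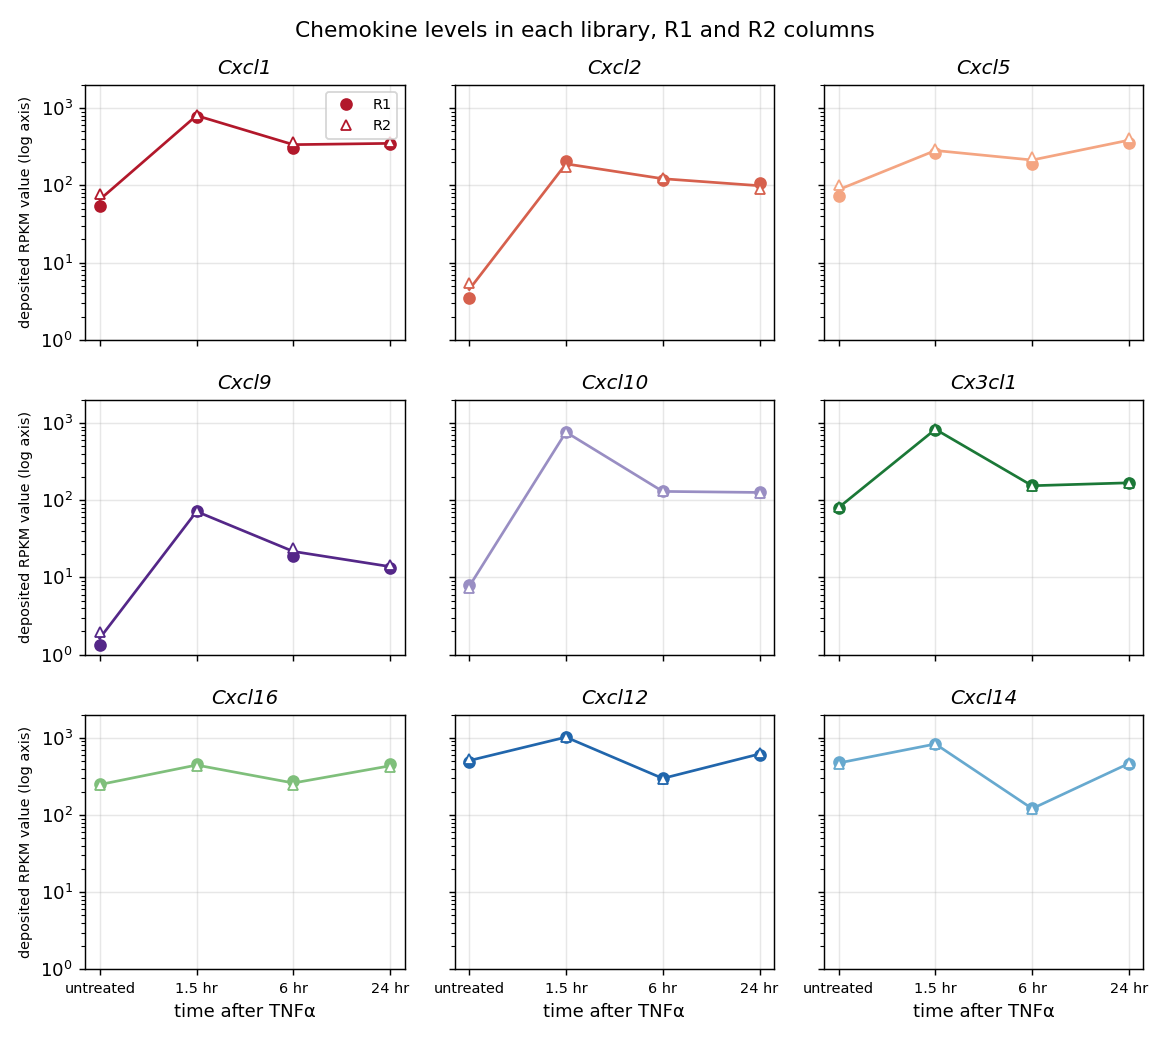
Deposited RPKM value (log axis) of each chemokine in the untreated library and at 1.5, 6 and 24 hr of TNFα, with the R1 and R2 columns as points and their mean as the line. Cxcl10 runs from 7.64 to 762, whereas Cxcl16 stays between 248 and 444; each point is from 1 library per time.

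The 3 Cxcr2 ligands of the set were at least 2-fold higher than in untreated MEFs at every time. Cxcl1, the neutrophil attractant also called KC, had a value of 65.5 in the untreated library (R1 54.7, R2 76.3), 802 at 1.5 hr (778 and 826), then 337 at 6 hr (306 and 368) and 350 at 24 hr (339 and 360). Every treated column was above both untreated columns. The log2 ratio was 3.61 at 1.5 hr (3.24 to 3.99), then 2.36 at 6 hr (1.97 to 2.77) and 2.42 at 24 hr (2.03 to 2.81). As deposited, its 24 hr value was 1.04 times the 6 hr value. Less the median of the coding genes, the log2 ratios were 3.17 at 1.5 hr, then 3.10 at 6 hr and 2.31 at 24 hr. The step from 1.5 to 6 hr and that from 6 to 24 hr thus depended on the scaling.

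Cxcl2, a close relative also called MIP-2, was nearly absent from untreated cells. Its value was 4.48 in the untreated library (R1 3.52, R2 5.44), 190 at 1.5 hr (204 and 175), then 122 at 6 hr (118 and 126) and 99 at 24 hr (108 and 89.6). The untreated value rested on about 5 reads, so the size of its log2 ratio at 1.5 hr, 5.40, had a wide interval, from 4.19 to 7.07. The ratio was 4.77 at 6 hr (3.53 to 6.44) and 4.46 at 24 hr (3.23 to 6.13). Less the coding median, the values at 1.5, 6 and 24 hr were 4.96, 5.51 and 4.36. At 6 hr Cxcl2 ranked 3 among the 6022 coding genes. Cxcl2 reached the mean value required of these genes only through its treated libraries, so this rank is partly set by that floor. Cxcl1 and Cxcl2 are related in sequence, and how reads that match both were counted is not given in the sources used here.

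Cxcl5, the third Cxcr2 ligand of the set, had another time course. It was at 88 in the untreated library (R1 73.6, R2 102), 283 at 1.5 hr (266 and 300), then 213 at 6 hr (190 and 236) and 385 at 24 hr (358 and 412). As deposited, it was the only chemokine of the 9 with its highest value at 24 hr, a time at which 6.06% of the coding genes had theirs, against 20.1% to 22.4% under the 4 other scalings. Its log2 ratio was 1.68 at 1.5 hr (1.42 to 1.96), then 1.28 at 6 hr (1.01 to 1.57) and 2.13 at 24 hr (1.88 to 2.39). With the coding median taken off, these were 1.24, 2.02 and 2.03. The 24 hr value was 1.36 times that at 1.5 hr, and both 24 hr columns were above both 1.5 hr columns. The other 8 had their highest deposited value at 1.5 hr, as did 59.4% of the coding genes. Under each of the 4 other scalings, 6 of the 9 had it at 1.5 hr, Cxcl2 and Cxcl16 had it at 6 hr, and Cxcl5 had it at 24 hr under 2 scalings and at 6 hr under the 2 medians of ratios. The coding genes with their highest value at 1.5 hr were then 26.9% to 35.5%, and those at 6 hr 18.1% to 21.5%.

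The 2 Cxcr3 ligands of the set had, among the 9, the lowest untreated values apart from Cxcl2 and high ratios at 1.5 hr. Cxcl10, also known as IP-10, was at 7.64 in the untreated library (R1 7.9, R2 7.38), 762 at 1.5 hr (769 and 755), then 130 at 6 hr (131 and 130) and 126 at 24 hr (128 and 123). This was 99.7-fold higher at 1.5 hr, a log2 ratio of 6.64 (5.68 to 7.74), which ranked 1 among the 6022 coding genes. Cxcl10 too passed the floor of 100 only through the treated libraries, so this rank is partly set by the floor. At 6 hr the value was 0.171 times that at 1.5 hr, and the log2 ratio to untreated was 4.09 (3.09 to 5.22). At 24 hr it was 4.04 (3.05 to 5.16). Less the coding median, the log2 ratios at 1.5, 6 and 24 hr were 6.20, 4.83 and 3.94.

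Cxcl9, also known as MIG, stayed the least abundant of the 9 in every library. Its value was 1.63 in the untreated library (R1 1.32, R2 1.95), 71.5 at 1.5 hr (71.5 and 71.4), then 21.7 at 6 hr (18.9 and 24.4) and 13.8 at 24 hr (13.2 and 14.3). All treated columns were above the untreated ones, and the 3 treated libraries did not overlap each other. The log2 ratio was 5.45 at 1.5 hr (4.21 to 7.09), then 3.73 at 6 hr (2.42 to 5.40) and 3.07 at 24 hr (1.77 to 4.77). With the coding median taken off, these were 5.01, 4.47 and 2.97. About 5 reads stood behind the untreated value, as for Cxcl2. The intervals of Cxcl2, Cxcl9 and Cxcl10 overlapped at 1.5 hr, so the order of these 3 ratios was not resolved at this depth.

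The membrane-anchored pair differed from each other in these libraries. Cx3cl1, or fractalkine, the ligand of Cx3cr1, was at 80.3 in the untreated library (R1 78.9, R2 81.8), 829 at 1.5 hr (820 and 838), then 154 at 6 hr (158 and 151) and 168 at 24 hr (169 and 167). Its log2 ratio was 3.37 at 1.5 hr (3.19 to 3.55), and the 6 and 24 hr values were far below that of 1.5 hr but above the untreated one. At 6 hr the ratio was 0.94 (0.72 to 1.16) and at 24 hr 1.07 (0.86 to 1.27). Both intervals hold the 2-fold line, so which side of it Cx3cl1 lay on at these times was not resolved. Under the 4 other scalings the 6 hr ratio was between 1.68 and 1.77, past 2-fold, and the 24 hr ratio between 1.00 and 1.12.

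Cxcl16, the ligand of Cxcr6, was already at 248 in the untreated library (R1 253, R2 243). It was at 444 at 1.5 hr (458 and 429), then 260 at 6 hr (273 and 247) and 434 at 24 hr (453 and 414). It passed the 2-fold line at no time, and its 6 hr columns overlapped the untreated ones. The log2 ratio was 0.84 at 1.5 hr (0.70 to 0.97), then 0.07 at 6 hr (-0.09 to 0.22) and 0.81 at 24 hr (0.67 to 0.94). Less the median of the coding genes, the 3 values were 0.39, 0.81 and 0.70.

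The stromal pair held the largest values of untreated MEFs among the 9. Cxcl12, also called SDF-1, the ligand of Cxcr4 and Cxcr7, was at 507 in the untreated library (R1 484, R2 530), 1020 at 1.5 hr (1010 and 1030), then 298 at 6 hr (306 and 290) and 618 at 24 hr (608 and 629). The columns of the 4 libraries did not overlap. Its log2 ratio was 1.01 at 1.5 hr, with 1.07 in R1 and 0.96 in R2, then -0.77 at 6 hr and 0.29 at 24 hr. Under the 4 other scalings the 1.5 hr ratio was between 0.58 and 0.76, short of 2-fold. Less the coding median the 6 hr value was -0.03, and after scaling to the sum or to a median of ratios it was between 0.04 and 0.06, so its direction at 6 hr depended on the scaling. The other rows of Cxcl12, NM_013655 and NM_001012477, share exons with NM_021704, and their log2 ratios were 0.68 and 0.39 at 1.5 hr, and -1.06 and -1.13 at 6 hr. Reads were not estimated for Cxcl12, since its row was not paired with a transcript length.

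Cxcl14, also called BRAK, was at 472 in the untreated library (R1 480, R2 464), 832 at 1.5 hr (820 and 844), then 121 at 6 hr (125 and 118) and 466 at 24 hr (461 and 470). The 6 hr columns were below all others, and the 24 hr columns overlapped the untreated ones. The log2 ratio at 6 hr was -1.96 (-2.19 to -1.74), which ranked 66 from the lowest of the 6022 coding genes. Less the coding median this was -1.22, and it was at or below -1.13 under each of the 4 other scalings. The ratio was 0.82 at 1.5 hr (0.70 to 0.94) and -0.02 at 24 hr (-0.15 to 0.11). Its deposited value at 24 hr was 3.84 times that at 6 hr.

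**Figure D3:**
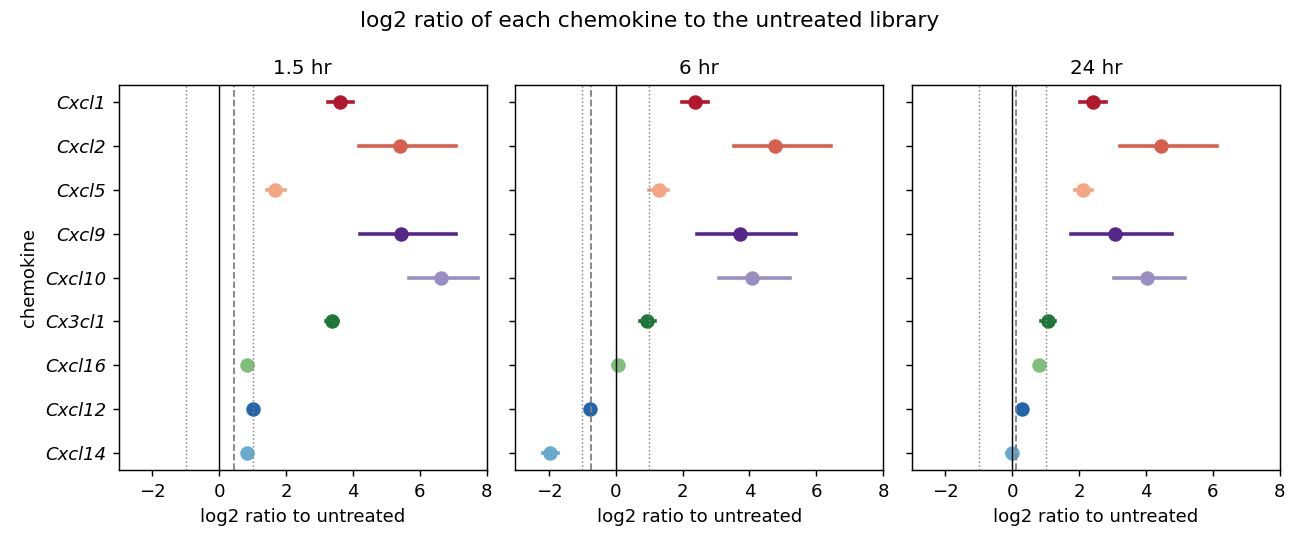
log2 ratio of each chemokine to the untreated library at 1.5, 6 and 24 hr, with 95% exact binomial intervals of counting error as bars (none for Cxcl12). Dotted lines mark 2-fold and the dashed line the median of the coding genes, 0.44, -0.74 and 0.10; Cxcl10 lies at 6.64 at 1.5 hr and Cxcl14 at -1.96 at 6 hr.

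The makeup of the chemokine RNA changed with time. The values of the 9 genes summed to 1470 in the untreated library, 5240 at 1.5 hr, then 1660 at 6 hr and 2660 at 24 hr. Cxcl12 and Cxcl14 made up 66.4% of this sum before TNFα and 35.4% at 1.5 hr, then 25.3% at 6 hr and 40.8% at 24 hr. The 3 Cxcr2 ligands of the set went from 10.7% to 24.3%, 40.6% and 31.4%. The 2 Cxcr3 ligands of the set went from 0.629% to 15.9%, 9.17% and 5.24%, and Cxcl10 made up most of it. The share of Cxcl16 and Cx3cl1 together stayed between 22.3% and 25%, while at 1.5 hr Cx3cl1 was at 15.8% and Cxcl16 at 8.47%. These shares lie within a library and do not depend on how libraries are scaled to each other.

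**Figure D4:**
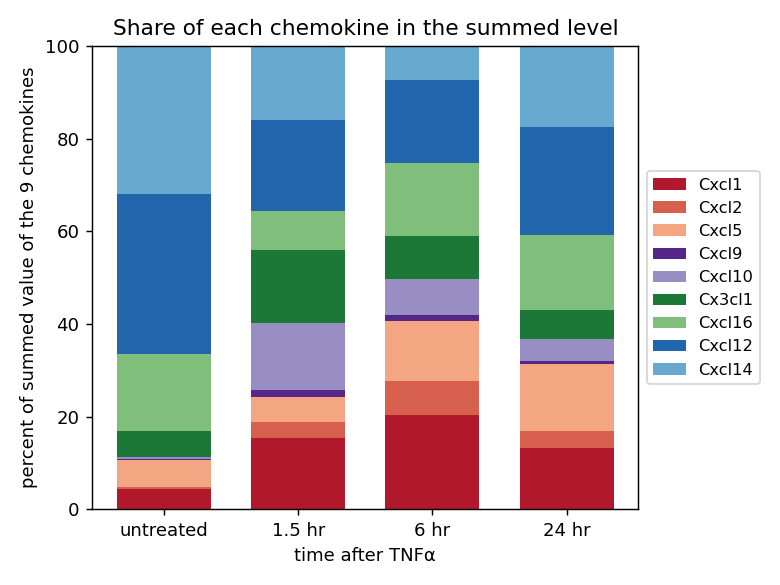
Share of each chemokine in the summed value of the 9 in each library, in percent, with 1 bar per library. Cxcl12 and Cxcl14 fill 66.4% of the untreated bar and 25.3% of the 6 hr bar, and the 3 Cxcr2 ligands of the set 10.7% and 40.6%.

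An H3K4me3 peak lay within 1 kb of the annotated start of 4 of the 9 genes, Cxcl1, Cxcl12, Cxcl14 and Cxcl16, and of 54.1% of 19654 coding genes, a share near that of the members. Cxcl12, Cxcl14 and Cxcl16 had untreated values above 100, where 91.7% of the coding genes had a peak. In every one of the 4 the peak covered the start. That of Cxcl12 was the widest, at chr6:117116758-117124421 (mm9), with 2152 tags and 90.5-fold enrichment. That of Cxcl1, at chr5:91319245-91321643, had 590 tags and 68.78-fold enrichment. Those of Cxcl14, at chr13:56395007-56398575, and Cxcl16, at chr11:70271968-70273992, had 629 tags at 28.96-fold and 393 tags at 22.58-fold, a lower fold enrichment than that of Cxcl1. The median peak of the list had 1049 tags and 45.5-fold enrichment.

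**Figure D5:**
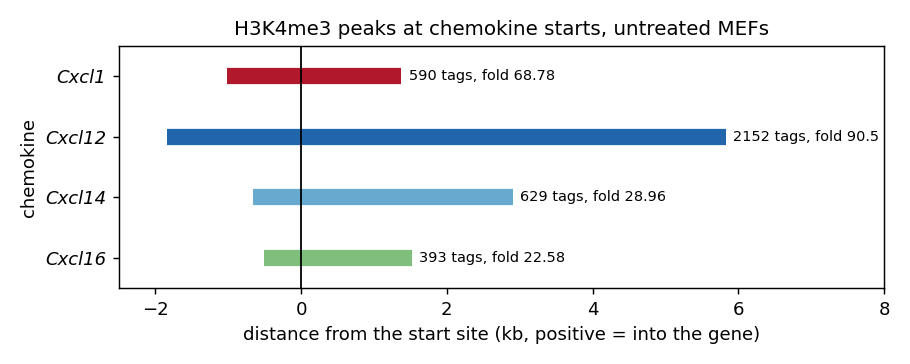
Extent of the deposited H3K4me3 peaks at 4 chemokine genes, in kb from the start site with positive values into the gene; the text beside each bar gives tags and fold enrichment. All 4 bars cross the start, and that of Cxcl12 reaches from -1837 to 5826 bp.

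The remaining 5 genes had no peak within 1 kb in a list whose lowest fold enrichment is 20. The peak of Cxcl1 was also the nearest to Cxcl2, 11256 bp before its start, since both genes lie on chromosome 5 with starts 12632 bp apart. The start of Cxcl5 was 130920 bp from that same peak. Cxcl9 and Cxcl10, whose starts are 20803 bp apart on the same chromosome, were 17577 and 38380 bp from their nearest peak. Among coding genes with an untreated value under 10, as Cxcl2, Cxcl9 and Cxcl10 had, 13% had a peak. Cx3cl1 and Cxcl5 had none within 1 kb at untreated values of 80.3 and 88, where 76.7% of the coding genes with a value from 10 to 100 had one, and the nearest to Cx3cl1 was 64464 bp away.

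Of the 7 other CXC chemokines looked up, none reached a mean value of 100. At 1.5 hr, 3 of them were at least 2-fold higher and 1 lower, at 6 hr 2 were higher and 2 lower, and at 24 hr 3 were higher and 2 lower. Of the coding genes, 29.8%, 1.84% and 16.8% were as much higher and 7.94%, 31.5% and 12.8% lower. The lower ones were Cxcl15 and Cxcl17, both under 10 in every library. The higher ones were Cxcl3, Cxcl11 and Pf4, at 4.08, 2.60 and 1.84 at 1.5 hr. Cxcl3 and Cxcl11 had untreated values of only 4.57 and 3.44. Cxcl13 was listed at 0 in every library. Of 11 receptor symbols, 9 were listed, and 7 of these were under 10 in every library, Cxcr2 and Cxcr3 among them. Cx3cr1, the receptor of Cx3cl1, was the only one with a mean of at least 100, and its log2 ratio was 0.59 at 1.5 hr, then 0.74 at 6 hr and -1.20 at 24 hr. At 6 hr its R1 and R2 columns differed, at 0.12 and 1.16. Among receptors with a value above 0 in both libraries, at least 2-fold higher ones numbered 1 at 1.5 hr and 0 later, and lower ones 1, 1 and 3. The coding shares to set beside them are those given above. Cxcr1 and Darc, at 5.26 and 0.821 in the untreated library, were listed at 0 at 1.5 and 6 hr and are not in these counts. Under the 4 other scalings none was higher at 1.5 hr, 1 was higher and none lower at 6 hr, and the other counts were as deposited.

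Of 16 genes of the NF-κB pathway, 12 were at least 2-fold higher at 1.5 hr, then 7 at 6 hr and 9 at 24 hr, and none was lower. Of the coding genes with a mean of at least 100, 29.8%, 1.84% and 16.8% were as much higher at the 3 times and 7.94%, 31.5% and 12.8% lower. Under the 4 other scalings 10 of the 16 were higher at 1.5 hr, 10 at 6 hr and 7 to 9 at 24 hr. The coding shares of higher genes then were 16.1% to 21.7%, 7.26% to 8.54% and 15.3% to 18.2%. The highest log2 ratio was that of Tnfaip3, which encodes the inhibitor A20, 5.81 at 1.5 hr, and the lowest that of the kinase gene Ikbkb, -0.41 at 24 hr. The same coding shares are to be set beside the 8 interferon pathway genes, of which 3, 1 and 2 were higher and none lower. Under the 4 other scalings 2 of the 8 were higher at 1.5 hr. The transcription factor gene Irf1 reached 3.50 at 1.5 hr, the lowest ratio was -0.81 for Irf9 at 6 hr, and Ifnb1 was listed at 0 in every library.

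Proteases that release or trim chemokines, a list of 5, had 3 genes higher at 1.5 hr, then 1 at 6 hr and 2 at 24 hr, with 0, 1 and 1 lower. With the 4 other scalings, 1 or 2 were higher at 1.5 hr and none was lower at 6 hr. Under the 2 medians of ratios, 1 was lower at 1.5 hr. Mmp9 had the highest ratio, 3.55 at 24 hr, and Mmp2 the lowest, -1.73 at 6 hr. Of 5 genes of mRNA decay, 2, 0 and 1 were higher and none was lower, with Zc3h12a, an endonuclease that degrades cytokine mRNAs, at 1.26 at 1.5 hr and Zfp36l1 at -0.40 at 6 hr. The higher mRNA decay genes numbered 1 or 2 at 1.5 hr, 1 or 2 at 6 hr and 0 or 1 at 24 hr under the 4 other scalings. As deposited, 29.8%, 1.84% and 16.8% of the coding genes were as much higher at the 3 times, and 7.94%, 31.5% and 12.8% lower. These lists include genes under a mean of 100.

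The 3 coding genes nearest to each member over the 3 log2 ratios, by Euclidean distance, were looked up for the 8 members with a mean of at least 100. Nearest to Cxcl1 were the cytokine gene Lif (distance 0.07), the IκB gene Nfkbie (0.13) and the adhesion gene Icam1 (0.64). Cxcl2 and Cxcl10 had each other, Ccl20 and Tnfaip3 among their nearest 3, at distances from 1.19 to 1.52. Cxcl5 had Ctgf, BC013529 and Polr2b, and Cx3cl1 had Slc7a2, Bcl2a1b and Gjb2, at 0.63 to 0.74. Cxcl12 had Mbtps1, 5031439G07Rik and Etv6, at 0.04 to 0.08. Cxcl14 had Dpm3, Rps12 and Ppib, and Cxcl16 had Rad52, Ptma and Larp4b. These distances rest on 3 ratios that share the untreated library.

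The MEF label was checked against markers. All 9 fibroblast markers were present, and summed to 95700 in the untreated library, 99300 at 1.5 hr, then 45000 at 6 hr and 60200 at 24 hr. At least 2-fold higher were 1, 0 and 1 of the 9 at the 3 times, and 0, 6 and 3 were lower. The coding shares are those given below. Vim had the highest log2 ratio, 1.75 at 1.5 hr, and Col1a1 the lowest, -1.85 at 24 hr. Under the 4 other scalings none of the 9 was lower at 6 hr, 1 was lower at 1.5 hr and 3 or 4 at 24 hr. All 7 leukocyte and macrophage markers were present too, none at 0, and summed to 3300 in the untreated library, 16500 at 1.5 hr, then 3200 at 6 hr and 8110 at 24 hr. Among them, 4 of 7 were at least 2-fold higher at 1.5 hr, then 1 at 6 hr and 2 at 24 hr, and 0, 3 and 1 were lower. Of the coding genes, 29.8%, 1.84% and 16.8% were as much higher and 7.94%, 31.5% and 12.8% lower. Lyz2 made up most of the sum, at 2260, 14700, 2690 and 7190 in order of time, and Ptprc, the pan-leukocyte CD45 gene, was at 13.4, 30.8, 8.63 and 16.6. Among those with a mean of at least 100, Cd14 had the highest log2 ratio, 3.04 at 1.5 hr, and Csf1r the lowest, -1.71 at 6 hr. Csf1r did not rise at 1.5 hr, with a ratio of -0.04 and values of 295, 287, 90.1 and 124 in order of time. As deposited, the leukocyte sum was highest at 1.5 hr, as were 8 of the 9 chemokines and 59.4% of the coding genes. The sums of the fibroblast, endothelial and epithelial markers were highest at 1.5 hr too, so this time was not particular to the leukocyte list. The part of leukocytes in the chemokine values was not tested. Under the 4 other scalings, 3 of the 7 were higher at 1.5 hr, 1 or 2 were higher at 6 hr and none was lower at 6 hr. The 6 endothelial markers were under 10 in every library, summing to between 2.29 and 6.93, and 3 of the 4 epithelial markers were under 10 as well, with Krt18 at 41.1 in the untreated library.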

How the data were processed

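RNA-seq was made from 4 libraries of MEFs, untreated and at 1.5, 6 and 24 hr of TNFα. Mapping was done by the authors on mm9 with TopHat (version 1.1.3), who deposited RPKM values per RefSeq transcript, 2 columns per library. The table holds no whole reads or library totals, and its RPKM values are on a scale of their own, so depth per gene was estimated. For the H3K4me3 ChIP-seq the authors aligned reads with Bowtie (version 0.12.6) and called peaks with MACS from 1 library against input. The deposited peak list gives a count of tags, a ratio as fold enrichment, a −log10 p-based score, which was not used, and an FDR in percent. For the 24 hr RNA library, 1 protocol field describes ChIP, whereas its title, treatment and library source are of RNA-seq.

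Column names were matched to libraries by time through the study's list of sequencing depth. The R1 and R2 columns behaved as parts of 1 library. Of genes with 1 estimated read in R1, 53.3% to 70.7% also had 1 in R2, against 36.8% for independent counts with a mean of 1, and the Pearson correlation over genes was 0.99 to 0.992 on the log2(value + 1) scale. Ratios are log2 of the library value over the untreated one, with no pseudocount. The worth of a read was found from low values of 7178 genes with 1 annotated transcript (GENCODE vM1, NCBIM37, the same assembly as mm9), and 62.4% to 67.7% of values of up to 5 reads came within 0.1 of a whole number. Lengths of the members came from the same annotation. Starts and distances to peaks are on mm9, and promoter sequences are RefSeq on GRCm38.p6, read by gene symbol, with no coordinates carried between builds.

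The 9 members, the gene lists, the marker lists and the motifs were chosen with earlier results of these data known. The text names all members, and of each list the gene with the highest and the lowest log2 ratio among those with a mean value of at least 100. Cxcl3, Cxcl11, Cxcl13, Cxcl15, Cxcl17, Pf4, Cxcr1, Cxcr2, Cxcr3, Darc, Ifnb1, Lyz2, Ptprc and Krt18 were named after their values were seen. Steps were tested on simulated data first. Alternatives were 4 other scalings (sum, median of ratios over all or coding entries, trimmed mean of log ratios leaving out 30% of ratios and 5% of levels on each side), 3 pseudocounts, each column alone, the sum of rows of a gene, other folds and floors, and other peak settings. The scalings of the coding share, of the list counts and of the time of the highest value were added after seeing the data. Python 3.11.15, numpy 2.4.6, pandas 2.3.3, scipy 1.17.1 and matplotlib 3.10.9 were used.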

Additional observations from a re-analysis of the deposited data

Results flagged for a closer look

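Cxcl12 and Cxcl14 lay above the untreated library at 1.5 hr and below it at 6 hr, in both the R1 and R2 columns. The log2 ratio of Cxcl12 was 1.01 at 1.5 hr and -0.77 at 6 hr, and that of Cxcl14 was 0.82 and -1.96. Both ratios share the untreated library, and with 1 library per time the difference between the times was not tested. The coding genes moved the same way at their median, 0.44 and -0.74. Less these medians, Cxcl12 was at 0.57 and -0.03 and Cxcl14 at 0.37 and -1.22, and the part of the shift in the result was not tested beyond the other scalings.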

How the results depend on the processing

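Over 27 member ratios and 10 alternatives each, 265 of 270 values kept the sign of the reported one. The 5 others were Cxcl12 at 6 hr and Cxcl14 at 24 hr. Cxcl12 was at 0.06 scaled to the sum and 0.04 under either median of ratios. Cxcl14 was at 0.03 scaled to the sum and 0.02 in the R2 column. None of the 19 ratios past 2-fold changed sign, but most alternatives could not have reversed them. Adding a pseudocount cannot change a sign, and summing rows alters only Cxcl12. The log2 factors of the scalings, from -0.83 to 0.43, were smaller than 2-fold. What could change was the 2-fold call. Cxcl12 at 1.5 hr fell to between 0.58 and 0.76 under the other scalings. Cx3cl1 at 24 hr fell to 0.98 with a pseudocount of 10. Cx3cl1 at 6 hr rose to between 1.68 and 1.77 under the other scalings. A pseudocount of 100 left 3 chemokines at least 2-fold higher at 6 hr and 3 at 24 hr, since it pulls every ratio towards no change. At 1.5-fold, 2 were lower at 6 hr. Peaks of at least 40-fold enrichment lay at 2 starts. No member had a mean of at least 1000, so that floor gave no value. No paired analysis was possible because there was 1 library per time. The untreated values of Cxcl2, Cxcl9 and Cxcl10 rest on about 5, 5 and 9 reads, which limits the size of their ratios.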
